A study of Mus musculus with 6 samples.

Results

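Solute carriers (SLCs) are membrane proteins that move ions, nutrients and metabolites across the plasma membrane and the membranes of organelles, and their gene symbols carry a family number after the letters Slc. The genes described here were all rows of the deposited table whose symbol begins with Slc and a digit, without the mitochondrial Slc25 family and without Slc7a11, Slc3a2, Slc2a1 and Slc1a5. Of 190 symbols of that form, 40 were Slc25 genes and 4 were the carriers left out by name, which left 146 of the 12534 genes in the table. The rule read only the symbols, but it was set with earlier results of these data known. A gene that went uncounted in some library has no row in the table, so it could not be included. These 146 members fell into 38 families and were sorted into 14 groups by substrate. The symbol is not a proof of function: Slc9a3r1 and Slc9a3r2 encode scaffold proteins, Slc7a6os, Slc4a1ap and the pseudogene Slc2a4rg-ps are named after other genes, and Slc22a13b-ps is a pseudogene.

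RNA was sequenced from 4T1 cells, a mammary carcinoma line of the BALB/c mouse, grown in RPMI medium. The study asked how the loss of GPD2, the mitochondrial glycerol-3-phosphate dehydrogenase, changes metabolism in these cancer cells, with 3 samples of wildtype cells (WT) and 3 samples of Gpd2 -/- cells (KO). The labels of all 6 samples name a vector with Cas9 and a guide RNA against Gpd2, whereas the methods describe the transfection for the KO cells, so whether the WT cells met the vector is not known. The KO cells grew from a single cell after puromycin selection, so the knockout and the descent from that cell cannot be told apart. The labels do not say whether the samples were separate cultures, and the p-values measure only the spread between these samples.

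Libraries held 51186527 to 59846170 counts, of which 4.14% to 4.37% fell on the 10 most abundant genes. Gpd2 itself fell from 135.2 to 25.88 CPM (counts scaled to library size by the TMM method), a log2 fold change of -2.38 (standard error 0.0317, adjusted p = 5.12e-11, edgeR). Of the 12 epithelial markers listed, 5 were among the genes analysed. Of these, 1 was higher and 4 were lower in KO cells, where 66.8% of all tested genes differed in either direction. The summed level of the 5 markers was 1300 to 1360 CPM in WT and 756 to 792 CPM in KO libraries. Epcam and Cdh1, which define epithelial cells, were not analysed here. Markers of macrophages (6 of 18 analysed) summed to 38.5 to 39.6 CPM in WT and 32.4 to 34.5 CPM in KO libraries, and those of fibroblasts (3 of 12) to 115 to 116 and 56.6 to 64 CPM. Lymphocyte markers (2 of 12) summed to 1.08 to 1.29 and 1.69 to 2.11 CPM, and endothelial markers (3 of 10) to 128 to 135 and 127 to 142 CPM. The sums hide single genes that went other ways: Cdh5, an endothelial cadherin, fell 5.88-fold, while the myeloid Ly6c2 rose 4.28-fold and the fibroblast marker Pdgfrb 3.17-fold. The part of these marker differences in the results was not tested. In bulk RNA, fewer cells that express a gene and less RNA per cell cannot be told apart.

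Carriers work along gradients that other proteins build. Sodium-coupled carriers draw on the sodium gradient of the Na+/K+ pump, exchangers trade one solute for another, and facilitative carriers let a solute run down its own gradient. Metal carriers are a well-studied case: ZIP proteins (Slc39) bring zinc and other metals into the cytosol, ZnT proteins (Slc30) take zinc out of it, and the transcription factor MTF1 binds metal response elements in the promoters of several metal-handling genes, with the core TGCNCNC. The promoters of the 3 metal carriers past a 2-fold difference that had an entry are shown for that core, read on both strands from RefSeq's GRCm38.p6 sequence, 250 bases before to 50 after the start that RefSeq's promoter entry uses, with each match in capitals. They lie at chr4:134343216-134343515 for Slc30a2, chr4:62286179-62286478 for Slc31a2 and chr6:90618996-90619295 for Slc41a3, all on the plus strand. Those starts lie 420, 6036 and 14516 bases downstream of the first annotated base of each gene, and the sequence before that base is not shown.
Slc30a2: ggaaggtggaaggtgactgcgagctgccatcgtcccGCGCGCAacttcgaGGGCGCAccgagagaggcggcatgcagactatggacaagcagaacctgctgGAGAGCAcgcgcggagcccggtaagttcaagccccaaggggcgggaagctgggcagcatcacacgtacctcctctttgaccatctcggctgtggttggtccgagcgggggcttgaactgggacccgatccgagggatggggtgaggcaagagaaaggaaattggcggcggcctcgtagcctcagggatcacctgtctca
Slc31a2: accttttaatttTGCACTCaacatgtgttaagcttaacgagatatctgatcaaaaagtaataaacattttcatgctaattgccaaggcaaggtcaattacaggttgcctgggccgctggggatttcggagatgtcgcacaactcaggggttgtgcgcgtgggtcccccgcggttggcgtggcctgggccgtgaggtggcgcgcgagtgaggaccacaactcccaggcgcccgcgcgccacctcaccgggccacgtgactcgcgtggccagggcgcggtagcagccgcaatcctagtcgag
Slc41a3: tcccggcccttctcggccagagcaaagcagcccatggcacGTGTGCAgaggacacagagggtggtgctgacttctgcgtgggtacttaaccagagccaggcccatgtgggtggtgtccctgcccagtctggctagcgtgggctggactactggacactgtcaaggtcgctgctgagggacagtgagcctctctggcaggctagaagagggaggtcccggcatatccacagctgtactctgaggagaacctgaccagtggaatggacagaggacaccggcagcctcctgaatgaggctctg
The Slc30a2 window held 3 cores, at positions -214, -200 and -149 from that start, while the others held 1 each, at -238 and -210. In Slc41a3 the core overlapped the E-box CACGTG at -213. A core was found in 15 of the 19 metal carriers that had a promoter entry (78.9%) and in 66.1% of the 112 members with an entry. It was found in 63.8% of the 9738 genes of the table with an entry. Among the 16 amino acid and peptide carriers with an entry it was found in 5 (31.2%). A gene counted if any of its windows held a core, and some genes have several windows. Of all 32851 windows of that length, counted singly, 51% held a core, so that share is not like the gene shares. The core is short and common, and a match is a description of these letters only.

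Of the 146 members, 144 had enough counts to be tested. In KO cells the level of 52 was higher, that of 48 was lower and 44 did not pass (edgeR's quasi-likelihood test, threshold 0.05 after Benjamini-Hochberg adjustment over 12106 genes). That is 36.1% higher and 33.3% lower, next to 33.5% higher and 33.3% lower of all tested genes, and 69.4% called in either direction next to 66.8%. Below, "rose" and "fell" are used only for genes that passed this test. The median log2 fold change, always KO over WT, was -0.007 over the members and -0.001 over all genes. Most of the differences were small: 72 of the 100 called members differed by a fold of less than 1.5, as did 5695 of the 8085 called genes of the table (47% of all tested). In 99 of the 100, no KO value overlapped a WT value in CPM, as in 7939 of the 8085 called genes of the table, while 71.1% of all tested genes, called or not, had no such overlap. Without the 5 symbols that are no carriers and the pseudogene Slc22a13b-ps, 50 rose and 46 fell of 138 tested. Slc4a4 and Slc8a3, with 11 and 15 counts at most in any library, were not tested.

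**Figure D1:**
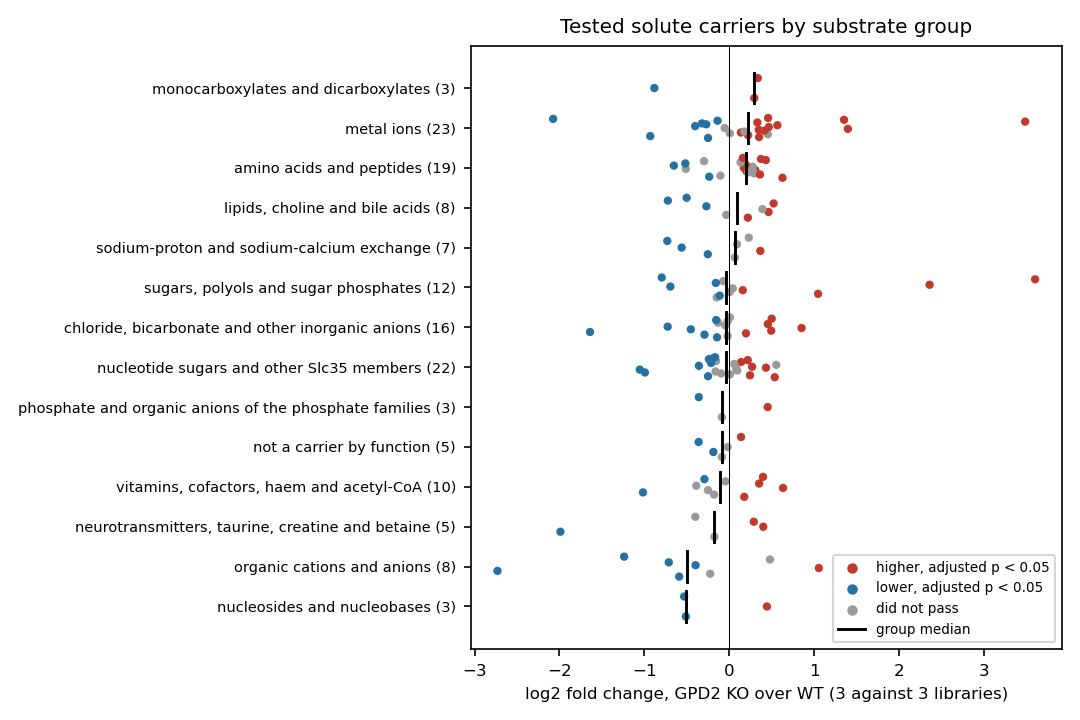
The horizontal axis gives the log2 fold change of KO over WT for the 144 tested members, 1 point per gene, in rows by substrate group with the number tested in brackets. Points are coloured by the edgeR call and black bars mark group medians, which run from -0.51 for nucleosides to 0.30 for monocarboxylates and dicarboxylates.

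With the thresholds stated in the study, a fold of 2 and an unadjusted exact test p under 0.05, 7 members were higher and 7 were lower, next to 3.86% and 4.78% of all tested genes, or 8.64% in either direction. The 7 higher were Slc2a6, Slc30a2, Slc2a3, Slc11a2, Slc31a2, Slc37a1 and Slc22a13b-ps. The 7 lower were Slc22a18, Slc41a3, Slc17a9, Slc12a5, Slc22a4, Slc35f3 and Slc52a3. Only Slc11a2, Slc31a2 and Slc22a4 among these 14 had a mean over 10 CPM in at least 1 of the groups, so the remaining 11 were genes of low level.

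**Figure D2:**
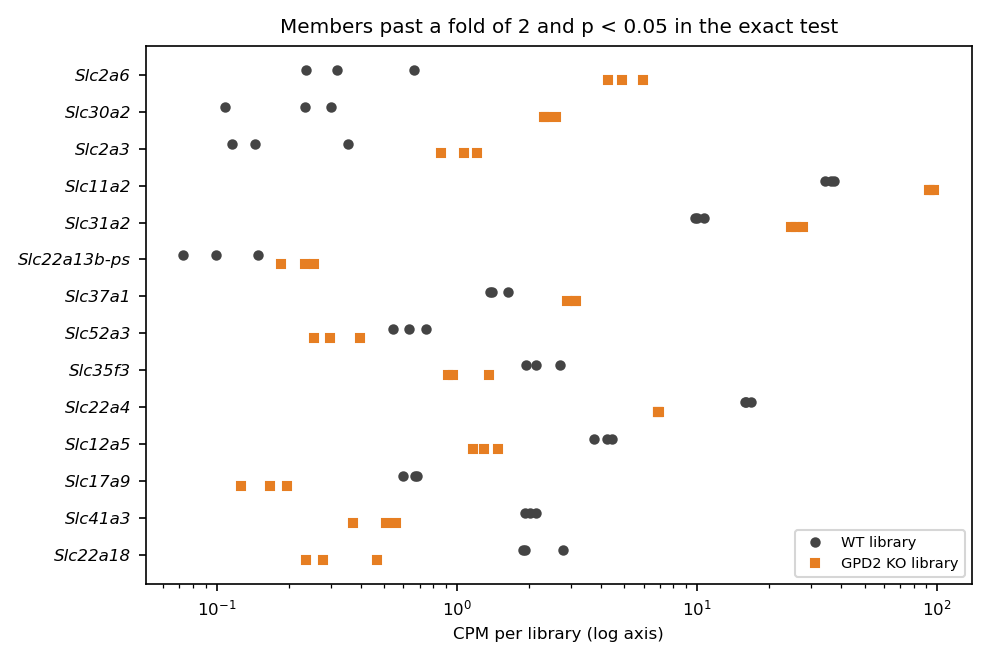
The 14 members past a 2-fold difference are shown as TMM-scaled CPM per library on a logarithmic axis, with WT libraries as circles and KO libraries as squares (3 each). The WT and KO values do not overlap in any of the 14, from Slc2a6 with WT values under 0.7 CPM and KO values over 4 CPM to Slc22a18 with the order turned. The 14 were selected for their difference between these same libraries, and 7939 of the 8085 called genes of the table had no overlap either.

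Metal ion carriers were the group with the highest share of calls among those of more than 3 members. Of 23 tested, 12 rose, 7 fell and 4 did not pass (82.6% called, 52.2% higher and 30.4% lower, next to 66.8%, 33.5% and 33.3% of all tested genes), with a median log2 fold change of 0.22. When any library was left out, 12 to 13 rose and 5 to 7 fell. Slc11a2 encodes DMT1, the proton-coupled carrier that brings ferrous iron into the cytosol from the gut lumen and from endosomes. Its level was 37.2, 36.1 and 34.3 CPM in WT and 93.8, 97.7 and 92.4 CPM in KO libraries. The KO values lay far above the WT values, with little spread within either group, a fold of 2.64 (standard error 0.0441 on the log2 scale, adjusted p = 9.86e-09). Slc11a2 lies on chromosome 15, from 100387898 to 100424209 in GRCm38.

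The zinc carrier Slc30a2 (ZnT2), known for loading zinc into vesicles and into milk in the mammary gland, stood at 0.109, 0.233 and 0.298 CPM in WT and at 2.31, 2.58 and 2.35 CPM in KO libraries. It was near the detection limit in WT cells and low, though clearly measured, in all KO libraries. The fold was 11.2 (log2 3.49, standard error 0.270, adjusted p = 3.19e-06), on chromosome 4 from 134343046 to 134354484. The remaining ZnT genes, apart from Slc30a4, moved little. Slc30a5, which forms the ZnT5 transporter of the early secretory pathway, rose by 0.14 on the log2 scale, while Slc30a1, the zinc exporter of the plasma membrane, fell by 0.25 and Slc30a6 fell by 0.27. Both falls were lost without KO replicate 3 (adjusted p = 0.0558 and 0.0966), WT replicate 2 (0.0768 and 0.0854) or WT replicate 3 (0.0524 and 0.0934), and that of Slc30a6 also without KO replicate 1 (0.0527). Slc30a7 and Slc30a9 had log2 fold changes of 0.008 and -0.053 and did not pass.

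Slc30a4 (ZnT4), also a vesicular zinc carrier of mammary cells, was among the most abundant members by TPM, and 1 library decided its result. It had 437, 148 and 437 CPM in WT and 473, 467 and 463 CPM in KO libraries. WT replicate 2 lay far below the other 5 libraries. With all libraries it gave a log2 fold change of 0.46 (standard error 0.318, adjusted p = 0.231), and without WT replicate 2 one of 0.095 (adjusted p = 0.0347). That library was not marked by many such genes: among 8932 genes over 10 CPM in both other WT libraries, 10 lay below 50% of both there, and the other libraries had 8 to 13 such genes.

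The ZIP family (Slc39) made up 10 of the metal carriers, and 6 rose and 3 fell (90% called, next to 66.8% of all tested genes). The remaining 1, Slc39a3, did not pass, though it did without KO replicate 3 (log2 fold change 0.24, adjusted p = 0.0219). The summed level of the 10, in the authors' TPM, was 532.8, 534.6 and 532.1 in WT and 652.2, 660.2 and 630.9 in KO libraries. The WT sums were nearly equal and every KO sum lay above them. Slc39a7 (ZIP7), which releases zinc from the endoplasmic reticulum and Golgi, was the most abundant, with 138, 143 and 142 CPM in WT and 204, 217 and 205 CPM in KO libraries (log2 fold change 0.57, standard error 0.0406, adjusted p = 1.89e-06). Slc39a13 (ZIP13) rose by 0.47, and Slc39a10, Slc39a4, Slc39a6 and Slc39a1 rose by 0.35, 0.35, 0.33 and 0.22. Slc39a14 (ZIP14), a carrier of zinc, manganese and iron not bound to transferrin, went the other way. It had 108, 102 and 112 CPM in WT and 55.6, 59.2 and 54.0 CPM in KO libraries. The groups did not overlap, and the fall of 0.93 on the log2 scale (standard error 0.0474, adjusted p = 2.2e-07) was the deepest in the family. Slc39a11 fell by 0.32 and Slc39a9 by 0.14, the latter not without WT replicate 1 (adjusted p = 0.0785).

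Both copper carriers rose. Slc31a1 (CTR1) is the high-affinity copper importer, and Slc31a2 (CTR2) is a related protein of endosomes and lysosomes. Slc31a2 had 10.7, 10.1 and 9.82 CPM in WT and 25.8, 24.6 and 27.7 CPM in KO libraries, a log2 fold change of 1.35 (standard error 0.0660, adjusted p = 1.65e-07). Slc31a1 rose by 0.46. The genes are neighbours on chromosome 4, 62171 bases apart.

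The magnesium family Slc41 split. Slc41a1, a sodium-dependent magnesium exporter, rose by 0.42, and Slc41a2 fell by 0.40. Slc41a3, described as a mitochondrial magnesium carrier, had 2.01, 2.14 and 1.92 CPM in WT and 0.509, 0.371 and 0.557 CPM in KO libraries. All KO values were below 0.6 and all WT values above 1.9 CPM, a 4.21-fold difference (log2 -2.08 (standard error 0.202, adjusted p = 1.43e-05)).

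**Figure D3:**
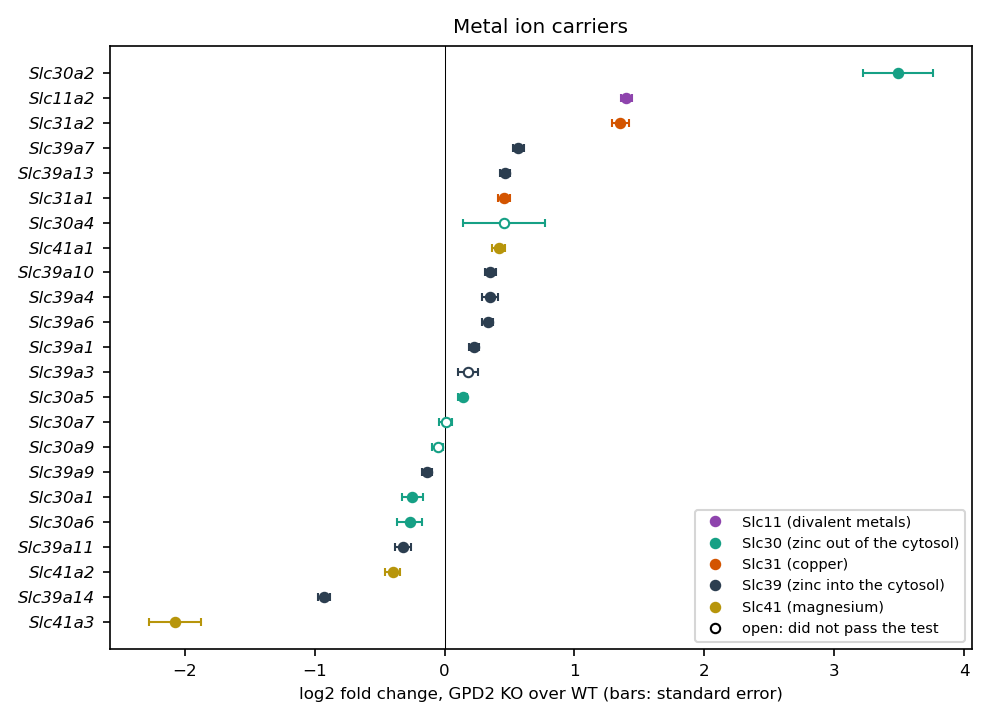
Each of the 23 tested metal ion carriers is placed by its log2 fold change of KO over WT, with bars for the standard error, colours for the family and open symbols for genes that did not pass the test. Slc30a2, Slc11a2 and Slc31a2 lie past 1, Slc41a3 lies at -2.08, and Slc30a4 has the widest bar.

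Genes that bind metals or govern their handling were read from a list of 26, of which 20 were measured: 9 rose, 6 fell and 5 did not pass (75% called, next to 66.8% of all genes). Tfrc, the transferrin receptor that brings iron into the endosomes, rose from 342.5 to 606.6 CPM (log2 fold change 0.82). Steap1, of a family of endosomal metalloreductases, rose by 0.88, and Ftl1, the light chain of the iron store ferritin, by 0.40. Atox1, the copper chaperone, fell by 0.51. The metallothioneins, which buffer zinc and copper and are textbook targets of MTF1, gave log2 fold changes of 0.22 for Mt1 (adjusted p = 0.000602) and -0.13 for Mt2 (adjusted p = 0.131). Mt1 and Mt2 were picked out after their values were seen, as were the magnesium transport genes of the list. Of these, Trpm6, Trpm7, Cnnm3 and Cnnm4 fell by 0.81, 0.22, 0.41 and 0.27, and Cnnm2 rose by 0.43.

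Amino acid and peptide carriers showed more rises than falls. Of 19 tested, 9 rose, 3 fell and 7 did not pass, with a median log2 fold change of 0.20. The share called was 63.2%, below the 66.8% of all tested genes, with 47.4% higher and 15.8% lower next to 33.5% and 33.3%. When any library was left out, 6 to 9 rose, with the low end without KO replicate 2, and 3 to 4 fell. Slc38a1 (SNAT1), a sodium-coupled importer of glutamine and other neutral amino acids, had 193, 195 and 202 CPM in WT and 300, 308 and 303 CPM in KO libraries. No KO library came near the WT range (log2 fold change 0.63, standard error 0.0352, adjusted p = 4.02e-07). Its neighbour Slc38a2 (SNAT2), 43954 bases away on chromosome 15, had 377, 379 and 406 CPM in WT and 426, 459 and 453 CPM in KO libraries (log2 fold change 0.20, adjusted p = 0.00218).

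Slc7a5 (LAT1), which exchanges large neutral amino acids across the plasma membrane, was the member with the highest level. Its values were 304, 338 and 357 CPM in WT and 399, 461 and 426 CPM in KO libraries. The groups did not overlap, though the spread within each was wider than for Slc38a1 (log2 fold change 0.36, standard error 0.0662, adjusted p = 0.000874). Slc3a2, the heavy chain with which LAT1 pairs, is not a member and did not pass the test, at 178.0 CPM in WT and 201.1 CPM in KO cells (log2 fold change 0.18, adjusted p = 0.395). Slc7a1 (CAT1), a carrier of arginine and lysine, rose by 0.43, from 296, 307 and 316 to 413, 422 and 405 CPM. Slc7a6, another partner of Slc3a2, had a log2 fold change of -0.10 and did not pass (adjusted p = 0.0657), though it did in 6 of 12 alternatives, namely without KO replicate 2 (0.0213) or WT replicate 2 (0.0366), with DESeq2 (0.044), with both limma fits (0.0482 and 0.0487) and with no filter (0.0491).

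Carriers of the lysosome and other membranes varied within the same group. Slc15a4, a lysosomal carrier of histidine and peptides, rose by 0.31, and Slc38a7, a lysosomal glutamine exporter, rose by 0.38, whereas Slc36a1, a lysosomal and plasma membrane proton-coupled carrier, fell by 0.24. Slc38a9, the lysosomal arginine sensor, had a log2 fold change of 0.13 and did not pass. Slc38a10 fell the most, from 209, 227 and 204 to 140, 140 and 127 CPM, by 0.65 on the log2 scale (standard error 0.0557, adjusted p = 6.06e-06). The neutral amino acid carrier Slc1a4 and the glycine carrier Slc6a9 rose by 0.17 and 0.16. Both calls were lost without KO replicate 2 (adjusted p = 0.0599 and 0.0565) or WT replicate 1 (0.0568 and 0.0994), and that of Slc6a9 also without KO replicate 3 (0.0559).

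Sugar, polyol and sugar phosphate carriers held the largest rise among the members, that of Slc2a6, but none of the 10 members highest in TPM. Slc2a1, left out by the rule, had a mean of 128.6 TPM over all libraries, above the 108.6 TPM of Slc7a1, the lowest of those 10. Of the 12 members tested, 4 rose, 4 fell and 4 did not pass (median log2 fold change -0.032). That is 66.7% called, next to 66.8% of all tested genes. Only 2 fell without KO replicate 2, WT replicate 2 or WT replicate 3, when the small falls of Slc45a4 and Slc50a1 no longer passed. The Slc45a4 call (adjusted p = 0.0321) was lost in 9 of 12 alternatives, DESeq2 (0.0792) and the replicate block (0.0567) among them. Slc2a6 (GLUT6), a facilitative hexose carrier found on lysosomal membranes, had 0.236, 0.665 and 0.317 CPM in WT and 4.89, 5.96 and 4.28 CPM in KO libraries. It was barely present in WT cells and above 4 CPM in each KO library, a fold of 12.2 (log2 3.61, standard error 0.292, adjusted p = 4.24e-06). Slc2a6 lies on chromosome 2 from 27021363 to 27028000. Slc2a3 (GLUT3), a high-affinity glucose carrier best known from neurons, had 0.145, 0.116 and 0.354 CPM in WT and 1.21, 1.08 and 0.863 CPM in KO libraries. It stayed near 1 CPM in KO cells, a fold of 5.14 (log2 2.36, standard error 0.377, adjusted p = 0.000376). Slc37a1, a sugar phosphate exchanger of the endoplasmic reticulum, rose from 1.38, 1.63 and 1.398 to 2.88, 3.14 and 3.11 CPM.

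The summed TPM of the 4 Slc2 genes was nevertheless lower in KO cells, at 25.32, 26.72 and 25.33 in WT and 23.04, 22.65 and 22.90 in KO libraries. That sum is without Slc2a1, which had means of 135.1 TPM in WT and 122.1 TPM in KO cells. The more abundant Slc2a9, a carrier of urate, fell by 0.69 on the log2 scale, from 32.7, 33.3 and 32.1 to 20.9, 18.9 and 20.8 CPM. Slc5a3, the sodium-coupled carrier of the osmolyte myo-inositol, had 181, 150 and 171 CPM in WT and 95.7, 97.7 and 96.1 CPM in KO libraries (log2 fold change -0.80, standard error 0.0635, adjusted p = 3.9e-06). It lies within Mrps6 on the same strand, and Mrps6 fell by 0.30, so reads of these genes may have been shared. Slc37a4, the glucose-6-phosphate carrier of the endoplasmic reticulum, had a log2 fold change of 0.043 and did not pass, and neither did Slc2a8 (-0.15).

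The 3 tested carriers of monocarboxylates and related acids all differed, where 66.8% of all tested genes were called. Slc16a1 (MCT1), which moves lactate and pyruvate together with a proton, had 253, 241 and 256 CPM in WT and 314, 314 and 319 CPM in KO libraries (log2 fold change 0.34, standard error 0.0364, adjusted p = 2.84e-05). Slc16a6 rose by 0.30, and Slc16a13 fell by 0.88, from 39.4, 41.6 and 42.2 to 21.9, 23.7 and 21.2 CPM. WT and KO values did not overlap in any of the 3, as in 7939 of the 8085 called genes and 71.1% of all tested genes.

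Organic cation and anion carriers had the largest share of falls among groups of more than 3 members. Of 8 tested, 5 fell, 1 rose and 2 did not pass, with a median log2 fold change of -0.49. With so few genes, the 62.5% lower stands next to 33.3% of all tested genes, and the 75% called next to 66.8%. The riser was the pseudogene Slc22a13b-ps, with 4 to 8 counts in WT and 10 to 13 counts in KO libraries (adjusted p = 0.0435), and its call was lost in 7 of 12 alternatives, DESeq2 (adjusted p = 0.172) and each library left out but WT replicate 3 among them (0.0568 to 0.149). GENCODE's GRCm38 annotation places it within Slc22a14 on the same strand, whereas in RefSeq the genes lie 30061 bases apart. The summed TPM of the 7 Slc22 genes was 49.76, 50.39 and 52.90 in WT and 29.74, 29.72 and 30.93 in KO libraries.

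Slc22a4 (OCTN1), which carries ergothioneine, and Slc22a5 (OCTN2), the high-affinity carnitine importer, are neighbours on chromosome 11. Slc22a4 had 16.03, 15.95 and 16.89 CPM in WT and 6.91, 6.87 and 6.94 CPM in KO libraries. The 3 KO values were nearly the same, a 2.36-fold difference (log2 -1.24, standard error 0.0649, adjusted p = 2.7e-07). Slc22a5 fell by 0.71, from 12.5, 13.2 and 13.3 to 7.50, 8.11 and 8.25 CPM. Slc22a21, which lies between them in mouse, had a log2 fold change of -0.22 and did not pass (adjusted p = 0.179). Slc22a18, a gene of the imprinted cluster on distal chromosome 7 whose substrate is not well defined, had 1.89, 2.77 and 1.92 CPM in WT and 0.235, 0.278 and 0.468 CPM in KO libraries. It showed the deepest fall among the members, 6.64-fold (log2 -2.73, standard error 0.287, adjusted p = 2.32e-05). Slc22a15 and Slc22a23 fell by 0.59 and 0.40.

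Carriers of chloride, bicarbonate and other inorganic anions moved both ways. Of 16 tested, 5 rose, 6 fell and 5 did not pass (68.8% called, next to 66.8% of all tested genes). The median log2 fold change was -0.032. The chloride carriers that couple to sodium or potassium set cell volume and cell chloride. Slc12a2 (NKCC1), the sodium-potassium-chloride importer, had 263, 255 and 268 CPM in WT and 343, 364 and 372 CPM in KO libraries (log2 fold change 0.46, standard error 0.0404, adjusted p = 7.68e-06). Among the potassium-chloride exporters, Slc12a5 (KCC2), best known from neurons, fell 3.12-fold from 4.42, 3.72 and 4.21 to 1.17, 1.49 and 1.29 CPM (log2 -1.64, standard error 0.148). Slc12a4 (KCC1) fell by 0.14, a call lost without KO replicate 1 (adjusted p = 0.0663), KO replicate 3 (0.0614) or WT replicate 3 (0.0749), and Slc12a7 (KCC4) did not pass, with -0.020.

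Among the bicarbonate carriers of the Slc4 family, Slc4a5 and Slc4a8, both sodium-coupled, rose by 0.85 and 0.50. Slc4a5 had 18.8, 19.4 and 18.1 CPM in WT and 34.7, 33.9 and 33.1 CPM in KO libraries. The chloride-bicarbonate exchangers Slc4a3 and Slc4a2 fell by 0.72 and 0.15. Slc4a3 went from 9.66, 11.1 and 10.3 to 6.26, 5.90 and 6.63 CPM. Slc4a7, another sodium-coupled carrier, had a log2 fold change of -0.045 and did not pass. The fall of Slc4a11 (adjusted p = 0.0486) was lost in 8 of 12 alternatives, among them each library left out but KO replicate 1 (0.0705 to 0.13).

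Of 7 tested sodium-proton and sodium-calcium exchangers, 1 rose and 3 fell (57.1% called, next to 66.8% of all tested genes). Slc9a5 fell by 0.73, from 49.3, 51.2 and 50.1 to 30.2, 32 and 28.6 CPM, with no overlap between the groups. The Golgi exchanger Slc9a8 fell by 0.25, and Slc9b1 rose by 0.37. Of the scaffold proteins named after this family, Slc9a3r1 (NHERF1) fell by 0.36 and Slc9a3r2 had -0.086 and did not pass.

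Vitamin, cofactor, haem and acetyl-CoA carriers gave 4 rises and 2 falls among 10 tested (60% called, next to 66.8% of all tested genes). Slc19a1, the reduced folate carrier, had 45.9, 44.9 and 47.5 CPM in WT and 66.7, 75.6 and 72.3 CPM in KO libraries (log2 fold change 0.63, standard error 0.0523, adjusted p = 4.81e-06). It overlaps Col18a1 on the opposite strand by 8825 bases, and Col18a1 fell by 0.47, so the directions were opposite. Slc19a2, a thiamine carrier of the same family, fell by 0.29. Slc23a2, the sodium-coupled ascorbate importer, rose by 0.40, and Slc5a6, which imports biotin and pantothenate, rose by 0.35. Slc48a1 (HRG1), a haem carrier, rose by 0.18. Slc52a3, a riboflavin carrier, was low, at 0.544, 0.748 and 0.634 CPM in WT and 0.254, 0.297 and 0.396 CPM in KO libraries (log2 fold change -1.02, adjusted p = 0.01). Slc46a1, the proton-coupled folate carrier, had -0.25 and did not pass.

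Of 8 carriers of lipids, choline and bile acids, 3 rose and 3 fell (75% called, next to 66.8% of all tested genes). The choline carrier-like genes parted. Slc44a1 (CTL1), which imports choline for phospholipid synthesis, had 28.03, 27 and 25.96 CPM in WT and 16.3, 15.9 and 16.8 CPM in KO libraries (log2 fold change -0.72, standard error 0.0525, adjusted p = 2.07e-06). Slc44a2 (CTL2) went from 67.8, 63.2 and 73.5 to 95.1, 103 and 96.0 CPM, a log2 fold change of 0.52 (standard error 0.0559). By the authors' TPM, Slc44a2 was also the more abundant of the pair, at 42.8 in WT against 18.9 for Slc44a1. The fatty acid transport proteins Slc27a1 and Slc27a4, which also act as acyl-CoA synthetases, rose by 0.46 and 0.22, while Slc27a3 and Slc27a6 did not pass, the latter with a log2 fold change of 0.39 that passed without KO replicate 2 (0.56, adjusted p = 0.0219). Slc10a7 and Slc10a3, of the bile acid carrier family, fell by 0.50 and 0.27.

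The 3 equilibrative nucleoside carriers all differed, where 66.8% of all tested genes were called. Slc29a1 (ENT1), the main nucleoside carrier of most cells, fell by 0.53, from 151, 149 and 154 to 99.6, 107 and 107 CPM. Slc29a3, its lysosomal relative, fell by 0.51. Slc29a2 (ENT2) rose by 0.45, from 30.5, 30.2 and 28.6 to 37.02, 44.8 and 39.7 CPM. By TPM, ENT1 stayed above ENT2 in every library, and the summed TPM of the 3 carriers was 197.4, 197.1 and 201.1 in WT and 146.6, 159.7 and 157.2 in KO libraries.

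The Slc35 family, mostly carriers that bring nucleotide sugars into the Golgi and endoplasmic reticulum, was the largest, with 22 members. Of these, 6 rose, 8 fell and 8 did not pass (63.6% called, next to 66.8% of all tested genes). The median log2 fold change of the 22 was -0.043. Their summed TPM overlapped between the groups, at 640.4, 629.0 and 654.7 in WT and 650.4, 654.4 and 651.4 in KO libraries. Slc35d2 fell 1.99-fold, from 6.98, 6.18 and 7.98 to 3.38, 3.58 and 3.63 CPM, and Slc35f3 fell from 2.14, 1.94 and 2.70 to 0.920, 0.965 and 1.37 CPM. Slc35e1 fell by 0.36. Slc35f6 and Slc35c2 rose by 0.54 and 0.43. The carriers best known for supplying glycosylation gave small values: Slc35a1, for CMP-sialic acid, fell by 0.19, Slc35a3, for UDP-N-acetylglucosamine, rose by 0.14, and Slc35a2, for UDP-galactose, had -0.15 and did not pass. Without WT replicate 2 the Slc35a3 call was lost (adjusted p = 0.0547), and Slc35a2 passed without KO replicate 1 (0.0311) or WT replicate 3 (0.0444).

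Among carriers of neurotransmitters, taurine, creatine and betaine, 2 of 5 tested rose and 1 fell (60% called, next to 66.8% of all tested genes). Slc6a6, the taurine carrier, had 214, 224 and 213 CPM in WT and 289, 288 and 284 CPM in KO libraries (log2 fold change 0.40, standard error 0.0353, adjusted p = 7.28e-06). Slc6a8, the creatine carrier, rose by 0.29. The vesicular nucleotide carrier Slc17a9 was low and fell 3.97-fold, from 0.671, 0.681 and 0.596 to 0.196, 0.167 and 0.126 CPM (log2 -1.99, standard error 0.294, adjusted p = 0.000229). Of the phosphate families, Slc20a2 (PiT2) fell by 0.36, while Slc20a1 (PiT1) had 178, 167 and 171 CPM in WT and 164, 157 and 164 CPM in KO libraries and did not pass (adjusted p = 0.0856). Slc17a5, the lysosomal sialic acid exporter, rose by 0.45. Slc20a2 overlaps Smim19 on the opposite strand by 95 bases, and Smim19 fell by 1.11. Of the remaining symbols that are no carriers, Slc7a6os fell by 0.19, Slc4a1ap rose by 0.14 in a call lost without KO replicate 1, KO replicate 3, WT replicate 2 or WT replicate 3 (adjusted p = 0.0612 to 0.101), and Slc2a4rg-ps had -0.018.

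Levels between genes were compared in the authors' TPM, which scales by transcript length. The median member had a WT mean of 16.9 TPM, next to 23.3 for all genes of the table, and 9 members exceeded 100 TPM while 19 lay under 1. The 10 highest over all libraries were Slc7a5, Slc38a2, Slc30a4, Slc48a1, Slc39a7, Slc16a1, Slc29a1, Slc39a13, Slc20a1 and Slc7a1. In WT cells, the 10 members highest there held 30.9% of the TPM of all 146. The sum over all members was 4549, 4460 and 4668 TPM in WT and 4928, 4979 and 4913 TPM in KO libraries. Every KO sum lay above every WT sum, by 0.12 on the log2 scale between the means. Members that rose had a median WT level of 28.8 TPM, those that fell 17.7 and those that did not pass 6.74.

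**Figure D4:**
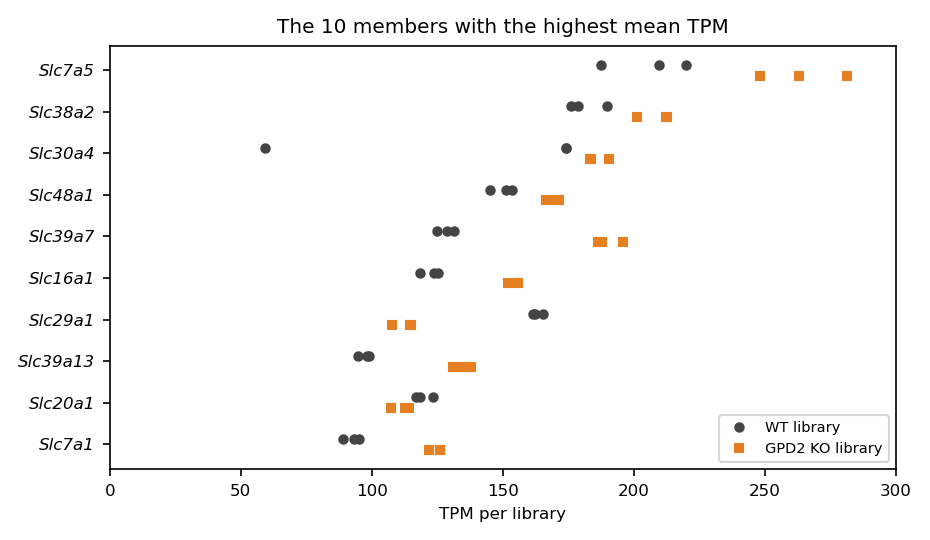
The TPM of the authors is given per library for the 10 members with the highest mean, with WT libraries as circles and KO libraries as squares (3 each). Slc7a5 is highest in both groups, Slc29a1 and Slc20a1 are the only ones of the 10 whose KO values lie below the WT values, and Slc30a4 shows the WT library that stands apart from the other 5.

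Carriers of SLC families that go by other symbols were read from a list of 50, of which 36 were measured: 12 rose, 14 fell and 10 did not pass, a share of 72.2% called next to 66.8% of all genes. Mfsd2a, the carrier of lysophosphatidylcholine with long unsaturated chains, rose from 17.08, 18.11 and 18.02 to 45.26, 45.75 and 45.97 CPM (log2 fold change 1.36, standard error 0.0422, adjusted p = 8.84e-09). Nipal1, of the NIPA family of magnesium carriers, fell from 9.43, 7.36 and 9.64 to 2.02, 2.28 and 2.48 CPM (log2 -1.96). Within the same family Nipal4, Nipal3 and Nipa1 also fell, by 1.94, 0.59 and 0.28, and only Nipa2 rose, by 0.60. Spns1, a lysosomal exporter of lysophospholipids, rose by 0.83. Mfsd2a and Nipal1 kept KO and WT values far apart.

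The pumps that build the gradients were a list of 20, of which 9 were measured. Of these 5 rose, none fell and 4 did not pass (55.6% called, next to 66.8%). Atp1b1, the beta subunit of the Na+/K+ pump, rose by 0.90, and Atp2a2, the calcium pump of the endoplasmic reticulum, by 0.31. Of 26 listed chaperones, anchors and regulators of carriers, 17 were measured, of which 8 rose and 5 fell (76.5% called, next to 66.8%). Nedd4l, a ubiquitin ligase that removes several carriers and channels from the membrane, rose by 0.77, while its relative Nedd4 fell by 0.42. Sgk1, a kinase known to restrain NEDD4L, fell by 0.72, and the membrane carbonic anhydrase Car12, which works beside bicarbonate carriers, rose by 0.68.

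In GENCODE's GRCm38 annotation, 26 of the 146 members overlap another gene of the table, 20 of them a gene on the opposite strand. Whether the authors counted by strand was stated in none of the sources used, so reads of those pairs may have been shared. Slc39a13 and Psmc3 overlap on opposite strands by 4579 bases, and Psmc3 rose by 0.20. Slc16a6 overlaps Amz2, which fell by 0.42 while Slc16a6 rose. The GENCODE span of Slc22a14 overlaps its neighbours Oxsr1 and Myd88 on the same strand. In RefSeq, Slc22a14 ends at 119190430, before Oxsr1 starts at 119238432. The counts of Slc22a14 were 15 to 31 per library.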

How the data were processed

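Total RNA of 3 WT and 3 GPD2 KO samples was sequenced after stranded mRNA library preparation. Per the methods and the submitters' processing notes, the authors used Trimmomatic 0.38 for trimming, HISAT2 2.1.0 for alignment to mm10, and StringTie 1.3.4d for transcript quantification. Whether counting used strand was not given in the sources used here. The deposited read counts per gene are not normalized. The deposited TPM and FPKM values were computed by the authors per library. The deposited table keeps genes with at least 1 count in all 6 libraries. Its 6 normalized log2 columns and the authors' own fold changes and p-values were not used.

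Samples were grouped by the genotype label. The counts went into edgeR 4.0.16 under R 4.3.3 (TMM factors 0.992 to 1.01, filterByExpr with a minimum count of 10, quasi-likelihood test, adjusted p under 0.05 over 12106 genes). Standard errors were derived from the quasi-likelihood F. The exact test with a fold of 2 and p under 0.05 followed the study. CPM compares libraries within a gene, and TPM compares genes. Alternatives used limma 3.58.1 on log2(TPM + 1) and log2(TPM + 0.1), DESeq2 1.42.0, median-of-ratios factors, no filter, a replicate block, and each library left out. The fit was tested on simulated KO against WT counts of 12106 genes, where it recovered 29, 44, 49 and 48 of 50 genes changed by a fold of 1.2, 1.5, 2 and 4, and called 7 of the 11865 unchanged genes that passed the filter. Every simulated gene had the same setting for spread between libraries, and few genes were changed. How the test behaves with unequal spread or with most genes changed was not simulated. Replicates differed by more than sampling noise (chi-square per degree of freedom 16.4 to 24.7).

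The members, substrate groups and gene lists were chosen with earlier results of these data known. Named genes were the 12 largest rises and 12 largest falls among called members of at least 1 CPM without overlap between groups, the 4 called members of each group with the smallest adjusted p, the 10 members highest in TPM, and up to 4 called genes per list. Other members and list genes were named to complete a family or list, after their values were seen. Positions and promoters came from RefSeq's GRCm38 annotation, matched by Entrez identifier for all 146 members. Of these, 112 had a promoter entry (154 windows of 300 bases). Overlaps between genes and their strands came from GENCODE's GRCm38 annotation, matched by symbol. A few genes chosen by this rule are left unnamed.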

Additional observations from a re-analysis of the deposited data

How the results depend on the processing

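Counts of members that rose or fell kept within 1.5 times under every alternative that kept the adjusted p alone as threshold. A fold of 2 in addition to the adjusted p left 7 higher and 7 lower members, and the exact test at the study's thresholds also gave 7 and 7. Leaving out a library gave 49 to 51 higher and 42 to 47 lower members. No called member changed sign under the 12 alternatives tried, and 84 of the 100 called members kept their call in all 12. Among the 60 members taken by the naming rule, Slc30a4 passed without WT replicate 2 alone, Slc20a1 passed under both limma fits, and Slc4a1ap lost its call under limma on log2(TPM + 1) and in 4 of the leave-one-out fits. The same replicate numbers did not pair the libraries, with correlations of deviations from the group means of 0.0549, 0.0621 and -0.0165 for numbers 1, 2 and 3. With the replicate number as a block, 51 members were higher and 46 were lower, the Gpd2 log2 fold change was -2.38, and the lists of other carriers, chaperones, pumps and metal genes had 26, 13, 5 and 15 called genes. Values near 0.1 CPM rest on a few counts and carry wide errors.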
